A study of Mus musculus with 48 samples.

Results

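The genes described are the ionotropic and metabotropic glutamate receptor subunits and a small set of their auxiliary subunits. They are the 28 rows of the deposited count matrix whose gene symbol is on a list of receptor and auxiliary genes, out of 24421 genes in the matrix. The list holds the AMPA subunits Gria1 to Gria4, the NMDA subunits Grin1, Grin2a to Grin2d, Grin3a and Grin3b, the kainate subunits Grik1 to Grik5, the delta subunit Grid1, the metabotropic receptors Grm2 to Grm8, and the auxiliary genes Neto1, Neto2, Cnih2 and Cnih3. RNA came from the Cornu Ammonis (CA1, CA2 and CA3) of male mice given as 8 weeks old in the labels, with the dentate gyrus removed, and each of the 48 libraries is 1 animal. Glu-CB1-KO mice (strain nex-cre x CB1f/f) lack the cannabinoid type-1 receptor in dorsal telencephalic glutamatergic neurons, since the regulatory elements of nex1 drive Cre. GABA-CB1-KO mice (strain dlx5/6-cre x CB1f/f) lack it in forebrain GABAergic neurons, since those of dlx5/6 drive Cre. Each KO was set against CB1-WT mice of its own line, for which the labels give the same cross. Mice were taken either in the basal state or after exploring an open field, a new arena used to activate the hippocampus. There were 5 Glu-CB1-WT and 7 Glu-CB1-KO mice in the basal state, and 5 and 7 after the open field. The GABA-CB1 line had 6 WT and 6 KO mice in the basal state, and 7 WT and 5 KO mice after the open field.

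Glutamate is the main excitatory transmitter of hippocampal pyramidal cells. AMPA receptors carry the fast current, NMDA receptors admit calcium when depolarization and glutamate coincide, and kainate receptors act on both sides of the synapse. Metabotropic receptors couple to G proteins, with the group I receptor Grm5 mainly postsynaptic and the group III receptors Grm4, Grm7 and Grm8 mainly on terminals, where they reduce transmitter release as CB1 does. Cornichons (Cnih2, Cnih3) accompany AMPA receptors through the secretory pathway and slow their closing, and Neto1 and Neto2 attach to kainate receptors.

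The libraries held between 25892654 and 34091080 counts assigned to genes, with a median of 30975561. As a check of the labels, Cnr1, the CB1 gene, had lower levels in all 4 KO groups. It fell by 0.73 on the log2 scale in basal Glu-CB1-KO mice and by 1.45 in GABA-CB1-KO mice after the open field. Neurod6, the gene also called nex1, was lower in Glu-CB1-KO than in Glu-CB1-WT mice over both states (log2 fold change -0.72, SE 0.045, adjusted p = 3.25e-11), so the KO of this line differs from its WT in more than Cnr1. CA1 markers and CA3 and CA2 markers were present in every library, and none of the markers examined was at 0 in any library. In bulk tissue, fewer cells of a type and less RNA per cell cannot be told apart. A group of 14 libraries, spread over all 8 groups, stood apart on the first principal component of the expression values, and this affects the NMDA subunits Grin2a and Grin2b described further on.

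The AMPA subunits Gria1 and Gria2 and the cornichon Cnih2 had the highest levels of all the genes described. Levels between genes are given as TPM (transcripts scaled to the same total in each library), which corrects for gene length, as the mean over 48 libraries. Gria1 reached 839.7 ± 27.9 TPM (SD, n = 48) and Gria2, the subunit that makes AMPA receptors impermeable to calcium, 613.3 ± 49.0. The other AMPA subunits, Gria3 and Gria4, had 223 ± 10.1 and 48.04 ± 3.75, which put them at rank 5 and rank 15 of the 28 genes. Of the summed TPM of the 4 AMPA genes, Gria1 held 48.7%, Gria2 35.5%, Gria3 12.96% and Gria4 2.79%. Cnih2 stood at 779 ± 45.3 TPM, between Gria1 and Gria2 in the order of the means, and its spread overlapped that of Gria1 but not that of Gria2. Cnih3, the second cornichon, had a mean of 82.0 ± 10.5, which was 9.55% of the summed level of both cornichons.

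The obligatory NMDA subunit Grin1 had 417 ± 20.9 TPM and made up 75.5% of the summed NMDA level. The glutamate-binding subunits Grin2b, Grin2c and Grin2a came next, at 43.5 ± 18.6, 31.3 ± 3.83 and 27.5 ± 11.2 TPM, and their ranges over the libraries overlapped. Grin2a and Grin2b were low in the 14 libraries that stood apart, so their order against Grin2c depends on those libraries. Grin3a, a subunit that lowers calcium permeability, had 26.8 ± 3.60 TPM, and Grin2d, prominent in interneurons, 6.97 ± 0.691. Among kainate subunits, the auxiliary-type subunits Grik5 and Grik4, which need a partner to form a channel, led with 199 ± 14.6 and 76.0 ± 7.17 TPM. The principal subunits Grik2, Grik3 and Grik1 had 54.3 ± 5.10, 18.1 ± 2.66 and 16.1 ± 1.74 TPM. Grid1, a delta receptor that binds cerebellin-type synaptic organizers, had 66.6 ± 3.34 TPM.

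Grm5, coupled to phospholipase C, was the most abundant metabotropic receptor, at 170.4 ± 15.4 TPM and 56.9% of the summed level of Grm2 to Grm8. The other metabotropic receptors couple to inhibitory G proteins. Grm7 had 57.8 ± 4.32 TPM, Grm3, which astrocytes also express, 37.6 ± 4.74, Grm2 22.9 ± 4.86, Grm4 6.44 ± 1.06 and Grm8 4.16 ± 1.32. Neto1 had 152 ± 19.7 TPM and Neto2 48.5 ± 4.40. Grin3b and Grm6 were close to undetected, with 179 counts in all for Grin3b, spread over 46 libraries, and 4 counts in all for Grm6, in 4 libraries. These 2 genes did not pass the filter on low counts, so 26 of the 28 genes were tested in every comparison.

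**Figure D1:**
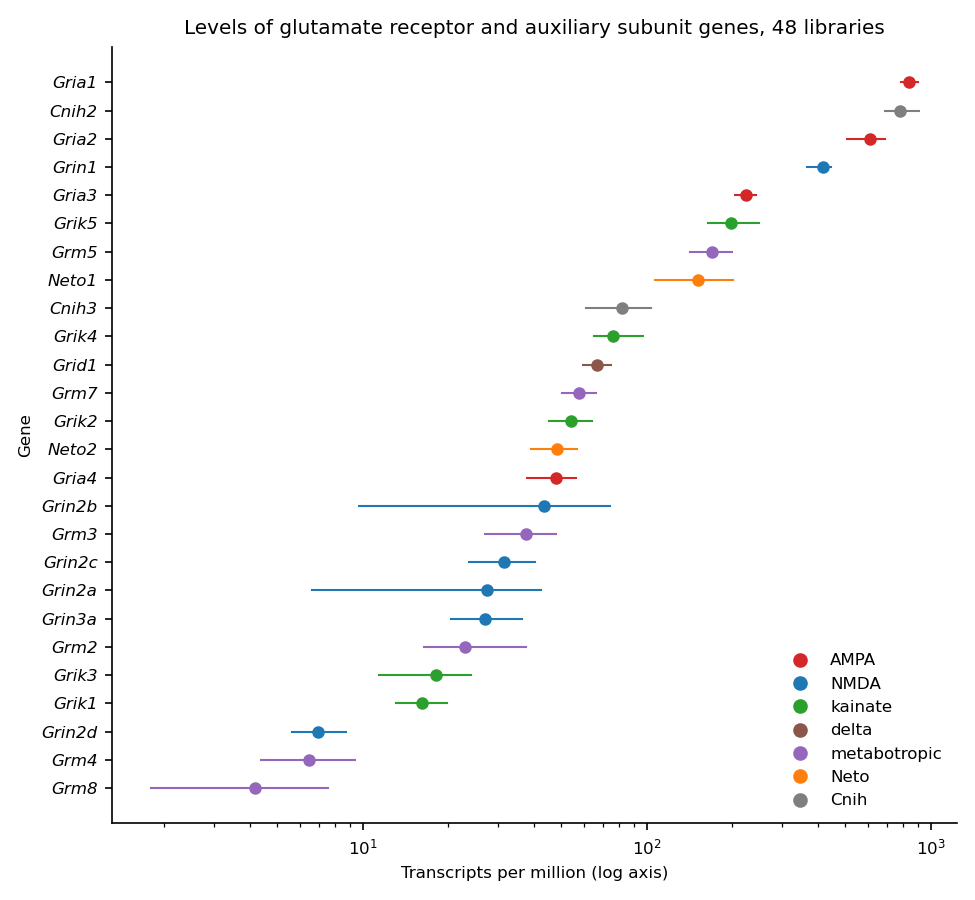
Mean level of each gene (point) and the range over 48 libraries (line), in TPM on a log axis, coloured by family. Gria1 (839.7) and Cnih2 (779) lie at the top and Grm8 (4.16) at the bottom. Grin2b and Grin2a have the widest ranges. Grin3b and Grm6, near 0, are left out.

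Between groups these levels moved little. Values between groups are given as CPM, the counts of a gene scaled to library size after normalisation by the trimmed mean of M values. The highest group mean exceeded the lowest by 1.04 times for Gria1, which ran from 1507 to 1568 CPM over the 8 groups. The same ratio was 1.07 for Grin1, 1.08 for Grik5, 1.12 for Grid1, 1.13 for Grm5, 1.12 for Neto1 and 1.11 for Cnih2, the gene of highest TPM in each other family. It was over 1.25 for 6 of the 26 genes tested, namely Grm8 (1.68), Grin2a (1.36), Grin2b (1.35), Cnih3 (1.32), Grik3 (1.28) and Grin3a (1.27). Group means ran from 540.4 to 577 CPM for Grin1, from 223 to 241 for Grik5, from 422 to 477 for Grm5, from 155 to 173 for Neto1 and from 317 to 351 for Cnih2.

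Glu-CB1-KO mice were compared with Glu-CB1-WT mice to ask which of these genes follow the loss of CB1 from glutamatergic neurons. Cnih3 was higher in the KO. In the basal state the 5 WT libraries had 55.0, 58.8, 70.8, 70.9 and 75.5 CPM, and the 7 KO libraries ran from 64.8 to 86.3 with a median of 78.6. After the open field the 5 WT libraries had 51.4, 55.4, 56.8, 59.4 and 71.5 CPM, and the 7 KO libraries ran from 65.1 to 83.8 with a median of 79.2. The KO libraries were mostly the higher ones in both states, but the groups overlapped in each, since the highest WT library of each state stood above the lowest KO library. The means were 66.2 ± 8.81 CPM in WT and 77.8 ± 7.67 in KO mice in the basal state, and 58.9 ± 7.60 and 76.3 ± 6.89 after the open field. With both states fitted together, Cnih3 was 1.23 times as high in the KO (log2 fold change 0.30, SE 0.062, adjusted p = 0.0284 by edgeR's quasi-likelihood test over all genes). It was the 1 gene of the 26 that was called in this comparison, in which 0.257% of the 15178 genes tested were called. DESeq2 called 0.615% of the genes it tested there, with Cnih3 again the 1 gene of the 26.

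In the single states, none of the 26 genes was called. In the basal state, where 0.0198% of all genes were called, Cnih3 had a log2 fold change of 0.23 (SE 0.086, adjusted p = 0.999), and 2 of the 26 genes had an unadjusted p under 0.05, as did 3.57% of all genes. The other of these was Grm2, an autoreceptor of group II, with 19.97, 20.1, 21.02, 22.6 and 22.64 CPM in WT and 20.1 to 37.6 with a median of 25.3 in KO libraries, which overlapped (log2 0.27, SE 0.12, adjusted p = 0.999). After the open field, where 0.272% of all genes were called, Cnih3 had 0.37 (SE 0.078, adjusted p = 0.0698), and 6 of the 26 genes and 6.97% of all genes had an unadjusted p under 0.05. DESeq2 called 0 of the genes at baseline and 3 after exploration, namely Cnih3, Grik3 and Grm8, against 0.0352% and 0.792% of the genes it tested. The interaction of genotype with state was not called for Cnih3 (log2 0.14, SE 0.12, adjusted p = 1.00), and edgeR called 0 of all 15355 genes there, a background of 0% (379 genes and 0 of the 26 had an unadjusted p under 0.05, and DESeq2 called 0).

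The call for Cnih3 over both states was lost in 9 of the 24 fits that left out 1 library, with adjusted p between 0.0504 and 0.0738 and log2 fold changes between 0.27 and 0.30. These were the fits without Glu-CB1-WT basal replicate 1 or 2, Glu-CB1-KO basal replicate 1, 4 or 7, or Glu-CB1-WT open field replicate 2, 3, 4 or 5. It was also lost without the 14 libraries that stood apart (log2 0.35, adjusted p = 0.0999) and with animal-number range as a covariate (log2 0.28, adjusted p = 0.0508).

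Markers of CA subfields, interneurons and thalamus also differed in this comparison, and their part in the result was not tested. All 8 CA3 and CA2 markers tested had negative fold changes in Glu-CB1-KO mice over both states, and 1 of them, Npy2r, was called (log2 -0.32, adjusted p = 0.00935). Their summed level ranged from 392 to 510 CPM in WT and from 380 to 517 in KO mice in the basal state, and from 431 to 540 and from 402 to 459 after the open field. All 10 interneuron markers had positive fold changes, and Npy (log2 0.48, adjusted p = 9.34e-05) and Sst (log2 0.35, adjusted p = 0.0433) were called. Of 7 thalamic markers 3 had positive fold changes, and Plekhg1 was called lower (log2 -0.38, adjusted p = 0.000413). With the open field groups alone, Npy (log2 0.55) and the subicular and cortical marker Fezf2 (0.33) were called higher, and the thalamic markers Prkcd (-0.58) and Plekhg1 (-0.42) and the CA3 and CA2 marker Iyd (-0.56) lower. Over both states the CA1 list had a median log2 fold change of 0.14 with 4 of 5 positive and none called, and the subicular and cortical list 0.14 with 3 of 4 positive. The summed interneuron markers ranged from 886 to 1005 CPM in WT and from 899 to 1058 in KO mice in the basal state. After the open field they ranged from 817 to 968 in WT and from 965 to 1066 in KO mice. With the mean level of the CA3 and CA2 list as a covariate, the log2 fold change of Cnih3 was 0.18 (SE 0.048, adjusted p = 0.188). With the interneuron list as the covariate it was 0.17 (SE 0.076, adjusted p = 1.00). The lists are themselves measured after the deletion, so these 2 fits do not separate the genotype from the makeup of the tissue.

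GABA-CB1-KO mice did not show the same difference in Cnih3. In the basal state the WT libraries ran from 58.8 to 75.4 CPM with a median of 65.7, and the KO libraries from 60.7 to 69.2 with a median of 65.3. After the open field the WT libraries ran from 58.5 to 71.0 with a median of 67.6, and the 5 KO libraries had 57.5, 58.5, 61.5, 72.3 and 79.7 CPM. The KO and WT values covered each other in both states, and the log2 fold change over both states was -0.02 (SE 0.050). The KO effect on Cnih3 over both states exceeded, in Glu-CB1 mice, that in GABA-CB1 mice by a log2 difference of 0.33 (SE 0.082, adjusted p = 0.0399). In this comparison 0.739% of 15429 genes were called, and Cnih3 was the 1 gene called of the 26, as it was by DESeq2, which called 1.08% of the genes it tested. This call was lost in 29 of 48 fits that left out 1 library, spread over all 8 groups, with adjusted p between 0.0508 and 0.0822 and log2 differences between 0.30 and 0.33. Of the other 11 settings, 6 kept the call. The difference was 0.14 (SE 0.11, adjusted p = 0.916) with the interneuron list as a covariate, 0.25 (adjusted p = 0.183) with the CA3 and CA2 list, 0.30 (adjusted p = 0.123) with the animal-number range, 0.36 (adjusted p = 0.0987) without the 14 libraries and 0.32 (adjusted p = 0.0558) without a filter beyond a total of 1.

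The promoters of Cnih3, Grik3 and Grm8 are shown because these 3 genes had the lowest p of the 26 in the Glu-CB1 line after the open field. Each is the stretch of 250 bases before the annotated start, from RefSeq promoters on GRCm38.p6, given 5′ to 3′ on the gene's strand. Of the 28 genes, 18 had an entry in that promoter table. Capitals mark matches on either strand to GGGCGG, the GC box, or CACGTG, an E-box. The cAMP response element TGACGTCA was also searched and had no match in these 3 windows. No searched motif overlapped another in them.
Cnih3, chr1:181352378-181352627, plus strand: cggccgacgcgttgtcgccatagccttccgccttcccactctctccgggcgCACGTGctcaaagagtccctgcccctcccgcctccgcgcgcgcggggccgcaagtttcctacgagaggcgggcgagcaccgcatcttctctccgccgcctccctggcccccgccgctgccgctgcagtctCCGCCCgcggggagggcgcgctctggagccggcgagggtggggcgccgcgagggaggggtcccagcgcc
Grik3, chr4:125490446-125490695, plus strand: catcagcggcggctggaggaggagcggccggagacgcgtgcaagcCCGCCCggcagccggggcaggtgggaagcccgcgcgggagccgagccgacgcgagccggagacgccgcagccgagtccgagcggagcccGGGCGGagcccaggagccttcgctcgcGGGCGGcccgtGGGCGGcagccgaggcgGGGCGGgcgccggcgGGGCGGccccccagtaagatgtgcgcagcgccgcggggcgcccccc
Grm8, chr6:28134422-28134671, minus strand: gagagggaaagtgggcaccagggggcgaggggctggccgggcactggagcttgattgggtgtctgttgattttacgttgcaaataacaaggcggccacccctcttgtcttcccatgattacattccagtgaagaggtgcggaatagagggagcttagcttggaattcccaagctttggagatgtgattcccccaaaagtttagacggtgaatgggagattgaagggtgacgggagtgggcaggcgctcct

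Grik3 held 6 matches to the GC box, Cnih3 held 1 and Grm8 held none. Among 27025 promoters of the same length, 32.9% held at least 1 match to the GC box, 6.05% to the E-box and 1.62% to the cAMP response element. Bases G and C made up 76% of the Cnih3 window, 82% of the Grik3 window and 54.4% of the Grm8 window, against a median of 52% over all promoters. The Grm8 window is the nearest of 3 listed for that gene to the start in the count file.

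Grm8, Grik3 and Grik1 had fold changes of opposite sign in the KO mice of the 2 lines after the open field, and edgeR called the difference between the lines for Grm8 alone. Grm8, a release-reducing receptor of terminals, had 2.27, 3.26, 3.40, 4.39 and 4.79 CPM in the 5 Glu-CB1-WT libraries, and 4.57 to 6.51 with a median of 5.32 in the 7 Glu-CB1-KO libraries. In the GABA-CB1 line it ran from 4.19 to 7.80 with a median of 4.98 in the 7 WT libraries, and the 5 KO libraries had 2.09, 2.72, 2.80, 4.36 and 5.23 CPM. The KO mean was higher in Glu-CB1 mice and lower in GABA-CB1 mice, and WT and KO values overlapped in both lines. The log2 fold changes were 0.57 (SE 0.15, adjusted p = 0.200) and -0.62 (SE 0.21, adjusted p = 0.279), neither of them called alone. Their difference of 1.19 on the log2 scale (SE 0.28, approximate 95% interval 0.64 to 1.73) was called, with an adjusted p of 0.0480. In that comparison 0.568% of 15325 genes were called, and Grm8 was the 1 gene called of the 26. DESeq2 called all 3 of these genes there, no other of the 26, and 1.28% of the genes it tested. At 2.09 to 7.80 CPM, Grm8 is the least abundant gene tested, with the fewest counts behind each value.

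The call for the difference in Grm8 was lost in 16 of 24 fits that left out 1 library, with adjusted p between 0.0565 and 0.110 and log2 differences between 1.05 and 1.21. They were the fits without Glu-CB1-WT replicate 2, 4 or 5, Glu-CB1-KO replicate 1, 2, 3, 4, 5 or 7, GABA-CB1-WT replicate 2, 5, 6 or 7, or GABA-CB1-KO replicate 1, 3 or 5, all of the open field groups. With the CA3 and CA2 list as a covariate the difference was 0.45 (SE 0.26, adjusted p = 0.354). With the interneuron list as the covariate, 0 of all 15325 genes were called, Grm8 included. Over the 11 other settings the difference ran from 0.45 to 1.39, and 5 of them kept the call.

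Grik3, a principal kainate subunit, had 32.3, 38.1, 42.01, 45.6 and 48.9 CPM in Glu-CB1-WT mice after the open field, and 47.6 to 59.6 with a median of 52.8 in Glu-CB1-KO mice. Among GABA-CB1 mice it ran from 43.8 to 64.9 with a median of 52.3 in WT mice, and the 5 KO libraries had 32.02, 43.7, 47.1, 47.6 and 50.9 CPM. Its fold changes had the same signs as those of Grm8, with log2 values of 0.36 (SE 0.086, adjusted p = 0.127) and -0.24 (SE 0.11, adjusted p = 0.367). Their difference of 0.59 (SE 0.15) had an adjusted p of 0.0610 and was not called.

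Grik1, the kainate subunit prominent in interneurons, had 14.8, 15.5, 15.7, 15.97 and 17.7 CPM in Glu-CB1-WT and 16.6 to 18.7 with a median of 18.2 in Glu-CB1-KO mice after the open field. Among GABA-CB1 mice it ran from 17.2 to 21.4 with a median of 19.4 in WT mice, and the KO libraries had 15.2, 15.3, 16.9, 17.6 and 19.0 CPM. The ranges overlapped in both lines. The log2 fold changes were 0.17 (SE 0.054, adjusted p = 0.378) and -0.21 (SE 0.070, adjusted p = 0.270), and their difference of 0.37 (SE 0.090) had an adjusted p of 0.0524. For Grm4, another group III receptor, the Glu-CB1 line had a log2 fold change of 0.29 (SE 0.093, adjusted p = 0.364). For Gria4, the AMPA subunit enriched in interneurons, the difference between the lines was 0.26 (SE 0.073, adjusted p = 0.117).

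**Figure D2:**
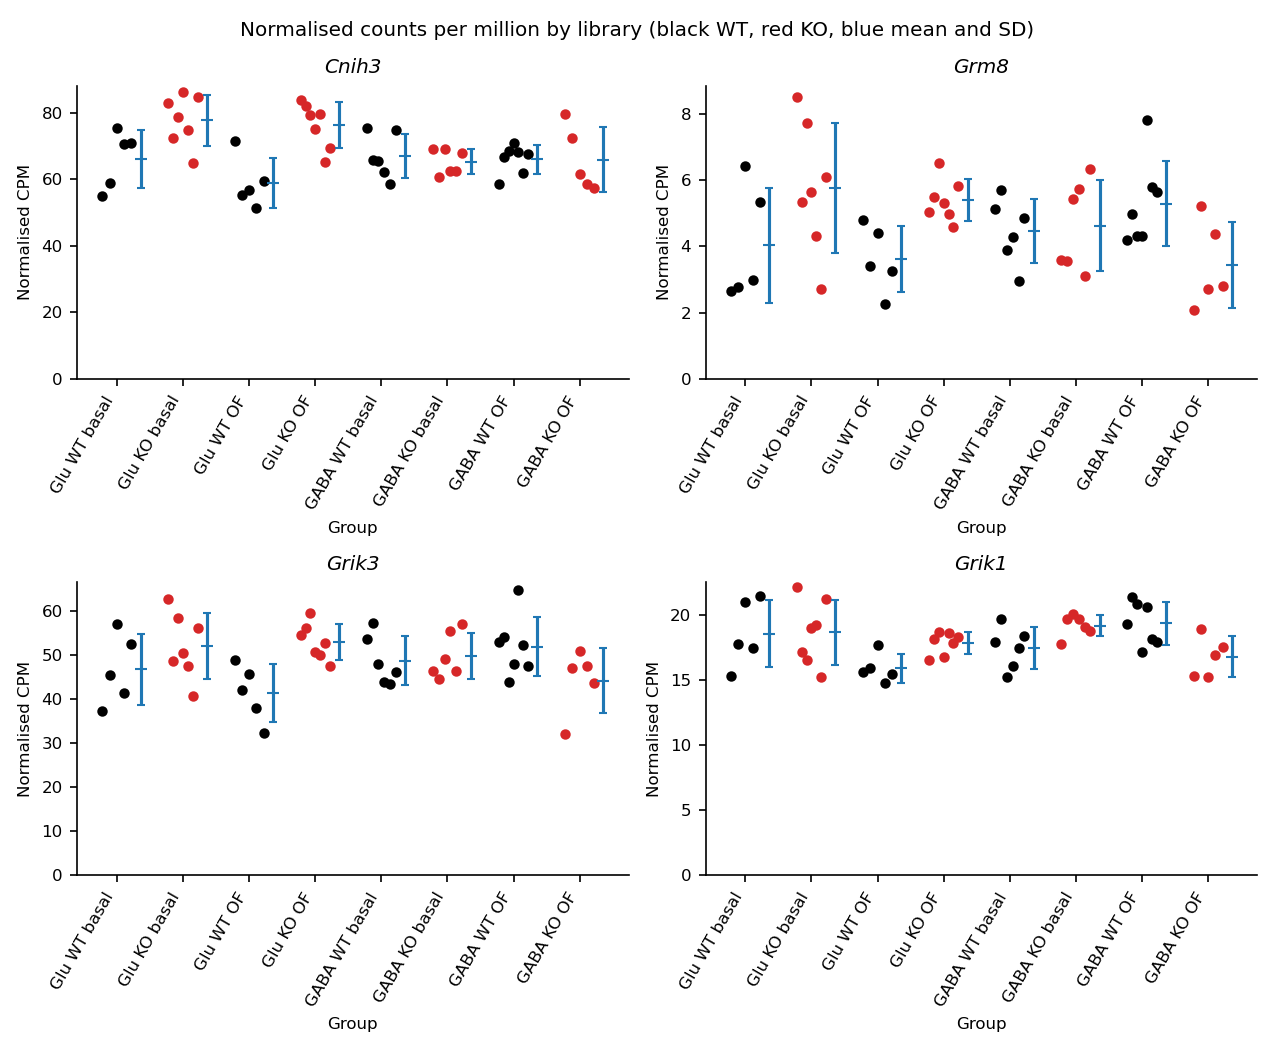
Normalised CPM of Cnih3, Grm8, Grik3 and Grik1 in each library by group (OF is open field), with WT in black, KO in red, and the group mean and SD in blue. For Cnih3 the Glu-CB1-KO groups average 77.8 and 76.3 CPM and the other groups 58.9 to 67.1. After the open field, Grm8, Grik3 and Grik1 have higher means in KO than WT mice of the Glu-CB1 line and lower means in those of the other line.

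The summed levels of 2 marker lists also differed in opposite directions between KO and WT means in these open field groups. The summed CA3 and CA2 markers averaged 481 ± 39.9 CPM in Glu-CB1-WT and 426 ± 21.9 in Glu-CB1-KO mice, but 440 ± 29.6 in GABA-CB1-WT (383 to 476) and 474 ± 40.0 in GABA-CB1-KO mice (428 to 531.03). Of the 8 markers, 7 had a lower KO effect in the Glu-CB1 line than in the GABA-CB1 line, and none of the 8 was called. The summed interneuron markers averaged 891.3 ± 56.8 and 1003 ± 30.7 CPM in WT and KO mice of the Glu-CB1 line. They averaged 977 ± 23.4 (942 to 1006) and 898 ± 20.9 CPM (870.5 to 924) in those of the GABA-CB1 line. For all 10 the KO effect was higher in the Glu-CB1 line, and Sst, Npy and Gad1 were called. The thalamic marker Prkcd (log2 difference -0.62, adjusted p = 0.00681) and the subicular and cortical marker Fezf2 (0.47, adjusted p = 0.0383) were also called. The summed level of 5 choroid plexus markers reached 4049.5 CPM in 1 GABA-CB1-KO library after the open field and did not pass 281 CPM in the 19 other open field libraries of the 2 WT groups and the Glu-CB1-KO group. The part of these markers in the result was not tested beyond the fits with the CA3 and CA2 and the interneuron lists.

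In the GABA-CB1 line, none of the 26 genes was called in either state. In the basal state, with 0.245% of all genes called, the lowest unadjusted p belonged to Grin2c, Grm5 and Grik1. Grin2c, an NMDA subunit also found in astrocytes, ran from 44.4 to 58.1 CPM with a median of 49.4 in WT and from 38.2 to 48.6 with a median of 42.1 in KO mice (log2 -0.23, SE 0.073, adjusted p = 0.399). Grm5 ran from 371 to 479 CPM with a median of 425 in WT and from 385 to 516 with a median of 492 in KO mice (log2 0.18, SE 0.072, adjusted p = 0.569). Grik1 ran from 15.3 to 19.7 CPM with a median of 17.7 in WT and from 17.8 to 20.1 with a median of 19.4 in KO mice (log2 0.14, SE 0.058, adjusted p = 0.574). Each pair of ranges overlapped.

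After the open field, with 0.0199% of all genes called, the lowest unadjusted p in the GABA-CB1 line belonged to Gria4, followed by Grik1 and Grm8 as described above. Gria4 ran from 83.6 to 98.7 CPM with a median of 94.2 in WT mice, and the 5 KO libraries had 71.0, 77.9, 84.5, 85.4 and 89.2 CPM (log2 -0.19, SE 0.056, adjusted p = 0.242). Over both states 0.355% of all genes and none of the 26 were called, with unadjusted p under 0.05 for 3 of the 26 (8.27% of all genes), namely Grid1, Grm7 and Grin2d. DESeq2 also called 0 of the 26 in these 3 comparisons, with no adjusted p for some of them after the open field, Grm8 included. Of the genes to which it gave an adjusted p, it called 0.621% in the basal state, 1.43% after the open field (141 of 9837) and 0.807% over both states.

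The interaction of genotype with state in the GABA-CB1 line had 11 of the 26 genes with an unadjusted p under 0.05, and 0 called by edgeR. Over all 15374 genes, 2237 had an unadjusted p under 0.05 and 0% were called. DESeq2 called 62 genes (0.728%), of which Grik1 was the 1 member (log2 -0.34, adjusted p = 0.0471). By edgeR Grik1 had the same log2 value (SE 0.092, adjusted p = 0.205), since it was higher in KO than WT mice in the basal state and lower after the open field. Gria4 had -0.25 (SE 0.069), Grm5 -0.28 (SE 0.10) and Cnih2 0.19 (SE 0.065), each with an adjusted p over 0.2.

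**Figure D3:**
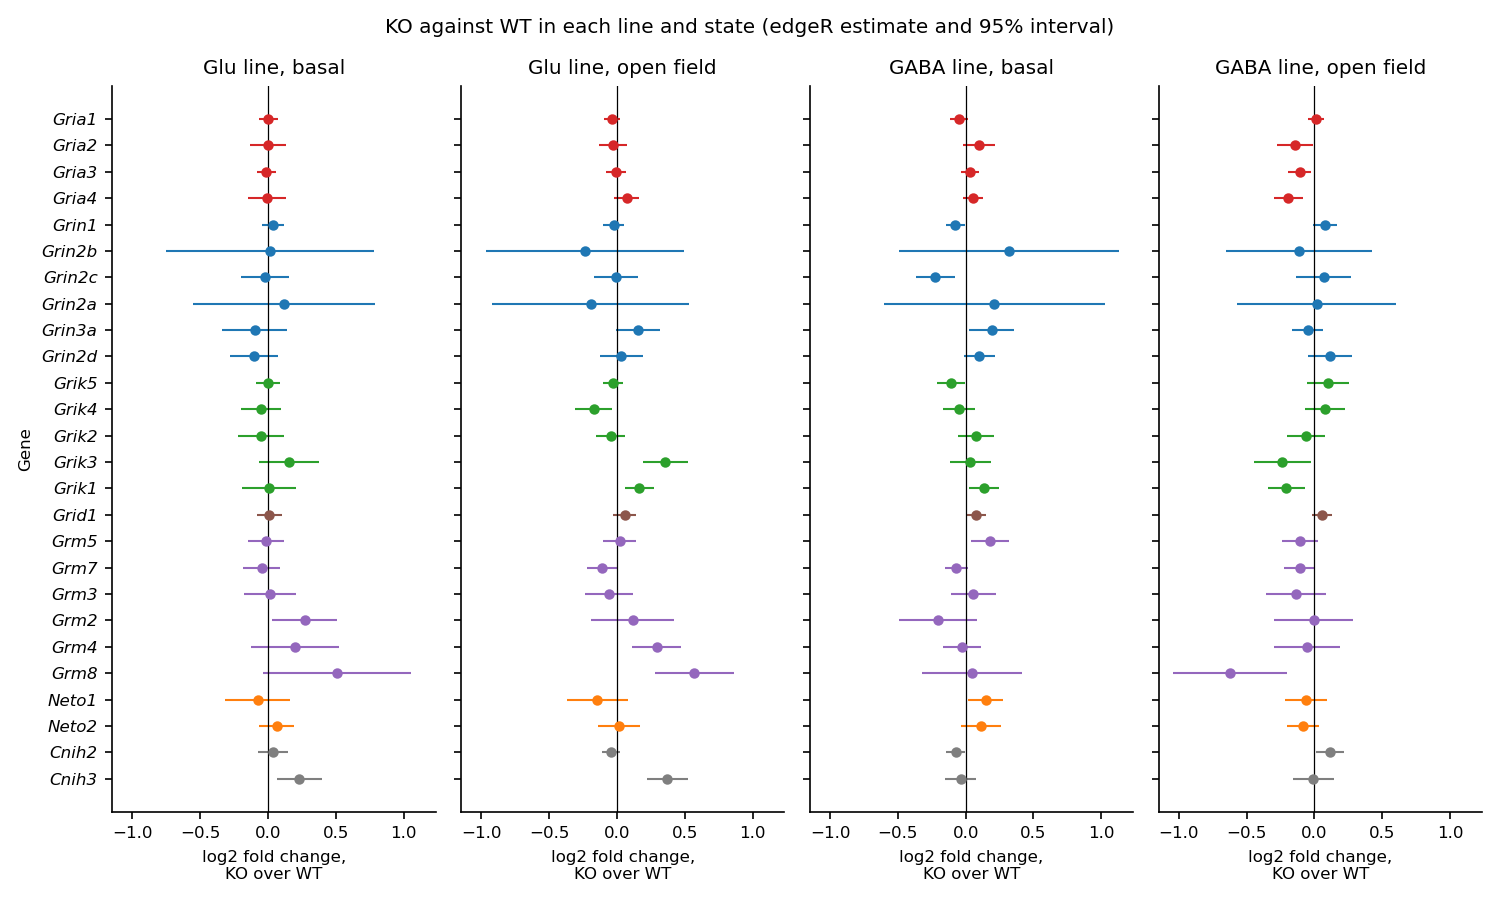
Log2 fold change of KO over WT for the 26 genes tested, in each line and state, coloured by family as in the plot of levels. Bars are approximate 95% intervals, a normal approximation from the SE of the edgeR fits. In the Glu-CB1 line after the open field Grm8 (0.57), Cnih3 (0.37) and Grik3 (0.36) lie highest, and in the GABA-CB1 line Grm8 (-0.62) lies lowest. Grin2a and Grin2b have the widest intervals in all 4 panels.

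For Gria1 and Grin1 the differences between KO and WT were small and their intervals narrow. These 95% intervals are a normal approximation from the SE, narrower than the quasi-likelihood test implies at these group sizes. Gria1 had a log2 fold change of 0.00 (95% interval -0.07 to 0.08) in basal mice of the Glu-CB1 line and -0.04 (-0.10 to 0.02) after exploration. Grin1 had 0.04 (-0.04 to 0.12) and -0.02 (-0.10 to 0.06) in the same comparisons. Among GABA-CB1 mice Gria1 had -0.05 (-0.11 to 0.02) and 0.01 (-0.04 to 0.07), and Grin1 -0.08 (-0.15 to -0.01) and 0.08 (-0.01 to 0.17). Gria2 had wider intervals, with 0.00 (-0.13 to 0.13) and -0.03 (-0.13 to 0.07) in Glu-CB1 mice and 0.10 (-0.02 to 0.21) and -0.14 (-0.28 to -0.01) in GABA-CB1 mice, none of them called. In the GABA-CB1 line the intervals of Grin1 in the basal state and Gria2 after the open field left out 0. By edgeR's test their unadjusted p was nevertheless not under 0.05 (adjusted p = 0.621 and 0.383). Over the 26 genes the median log2 fold change was 0.00 at baseline and -0.01 after exploration in Glu-CB1 mice, and 0.05 and -0.06 in GABA-CB1 mice. Over all genes tested the medians were 0.00 in these 4 comparisons.

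Mice of both genotypes were compared between states to ask which genes follow exploration. Arc, an activity-induced gene, averaged 85.5 and 94.5 CPM in the basal Glu-CB1-WT and Glu-CB1-KO groups and 146 and 138 after the open field. In contrast, no receptor or auxiliary gene was called. In the Glu-CB1 line, 1.83% of all genes were called and 23 of the 26 genes had negative fold changes, with a median of -0.05 against -0.01 over all genes. Fold changes were positive for 3 of the 26 and for 45.8% of all genes tested. The lowest unadjusted p belonged to Grid1 (log2 -0.07, SE 0.031, adjusted p = 0.304), Grik1 (-0.13, SE 0.060, adjusted p = 0.316) and Grin3a (-0.14, SE 0.081, adjusted p = 0.466). In the GABA-CB1 line 0.966% of all genes were called and 18 of the 26 had negative fold changes, with a median of -0.01. Fold changes there were positive for 8 of the 26 and for 49.6% of all genes, whose median was -0.0006. In that line the lowest unadjusted p belonged to Gria4 (-0.06, SE 0.042), Grid1 (-0.04, SE 0.026) and Gria1 (-0.03, SE 0.021), with adjusted p of 0.602 or more. Over all 48 libraries, 9.25% of all genes were called, none of them among the 26. Grid1 came nearest, at -0.05 (SE 0.020, adjusted p = 0.0805). DESeq2 called 0 of the 26 in these 3 comparisons, against 3.47%, 1.87% and 9.55% of the genes it tested. With the first principal component as a covariate, edgeR called 1 of the 26, Grid1, over all libraries, where 11.9% of all genes were called.

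The Grid1 values showed how small this was. In the basal state the group means lay between 70.1 and 73.8 CPM, and after the open field between 66.1 and 71.5, with SDs from 2.40 to 5.03 within groups. The WT mice of the 2 lines were also set against each other. None of 15235 genes was called by edgeR or DESeq2, a background of 0%, and 3 of the 26 genes (Grik3, Grm4 and Grm8, all higher in the GABA-CB1 line) and 593 of all genes had an unadjusted p under 0.05. The KO effect in the basal state, compared between the lines, was called for 0.279% of all genes and for none of the 26, where 3 had an unadjusted p under 0.05, as did 8.56% of all genes. DESeq2 also called 0 of the 26 there, against 0.446% of the genes it tested.

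Grin2a and Grin2b, the NMDA subunits that set receptor kinetics and change over postnatal life, differed mainly by library and not by group. The 14 libraries that stood apart had 9.17 to 26.1 CPM of Grin2a, with a mean of 15.9 ± 4.99, and the 34 others 28.3 to 58.4, with a mean of 47.2 ± 6.77. For Grin2b the ranges were 22.4 to 65.3 CPM (mean 42.3 ± 12.5) and 73.9 to 171 (mean 124 ± 23.6). The ranges did not overlap for either gene. Within groups the 14 libraries were lower by -1.71 on the log2 scale for Grin2a and -1.66 for Grin2b, in 8 of 8 groups. The component was computed without these 28 genes, and the split was drawn at its largest gap after the data were seen, so no test of it is given.

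Few genes shared so large a difference. Of 15040 genes, 50 (0.332%) were lower by 1 or more on the log2 scale in the 14 libraries and none was higher by as much. The next largest differences among the 26 genes were in Neto1 (-0.31), Grm3 (-0.28), Grik2 (-0.25), Grm5 (-0.23) and Gria2 (-0.19), each lower in 8 of 8 groups, while Grin2c was higher by 0.18. The 14 libraries all came from animals in the lowest range of animal numbers of their line, although other libraries of those ranges did not stand apart. The labels do not say what these numbers or ranges stand for.

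**Figure D4:**
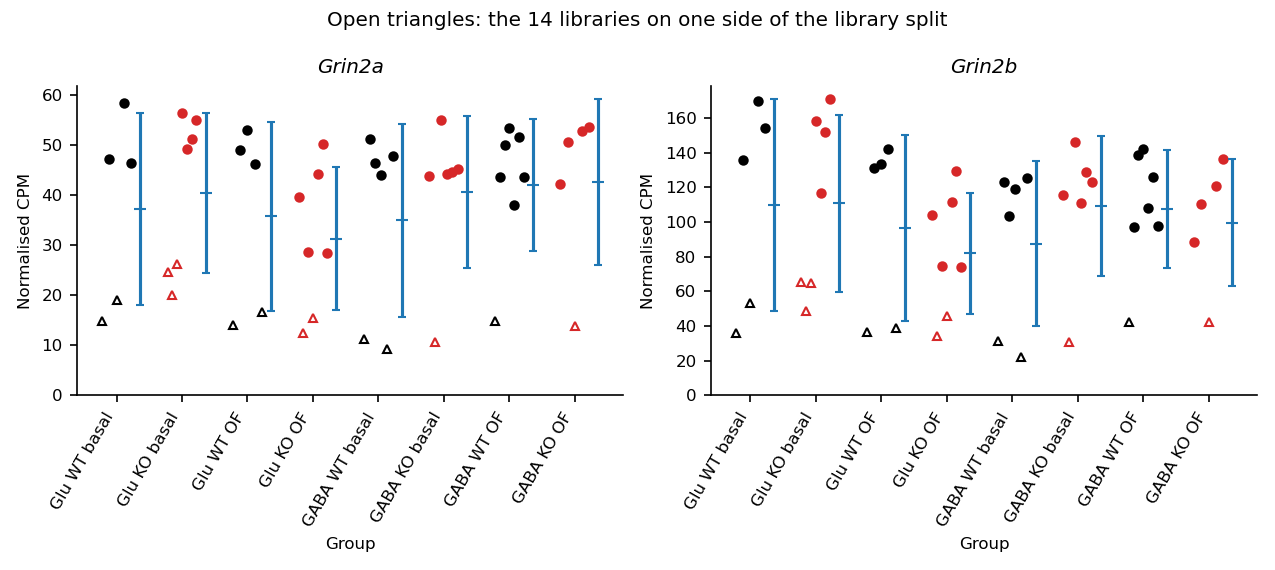
Normalised CPM of Grin2a and Grin2b in each library by group, with WT in black, KO in red, the 14 libraries that stood apart as open triangles, and the group mean and SD in blue. In every group the triangles lie below the filled points, at up to 26.1 CPM for Grin2a and 65.3 for Grin2b.

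Because of this split, KO and WT could hardly be compared for Grin2b over all libraries. Its log2 fold changes were 0.01 (SE 0.39), -0.24 (SE 0.37), 0.32 (SE 0.41) and -0.11 (SE 0.28) for Glu-CB1 mice, basal then open field, and for GABA-CB1 mice in that order. None was called. Without the 14 libraries the errors fell to between 0.076 and 0.15, and the fold changes were -0.04, -0.46, 0.08 and -0.05. In the Glu-CB1 line after the open field, the 3 remaining WT libraries had 131, 133 and 142 CPM and the 5 remaining KO libraries 73.9, 74.9, 104, 112 and 130. The highest KO library (129.6 CPM) lay just below the lowest WT library (131.0 CPM). The share of all genes with separate values in this layout was not counted. The KO libraries at 74.9, 73.9 and 104 CPM also lay nearest to the 14 on the principal component, at 2.57, 1.12 and -0.15, against -1.91 to -5.96 for the 5 others. This comparison had an adjusted p of 0.512 for Grin2b by edgeR (SE 0.15), and 0 of the 26 genes and 0.0992% of 15120 genes were called in it. Unadjusted p was under 0.05 for 9 of the 26 and 6.32% of all genes.

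Several of these genes followed the subfield markers from library to library. For each of the 26 genes and 6 marker lists, deviations from the group mean on the log2 scale were correlated over 48 libraries, which gave 156 relations with p from 100000 permutations within groups. Grm8 was lower where the CA3 and CA2 markers were higher (Pearson's r = -0.75, adjusted p = 0.00052, Spearman's rho = -0.69, adjusted p = 0.00104, r = -0.68 without the 2 libraries farthest from the median). The value was -0.88 among Glu-CB1 libraries and -0.58 among GABA-CB1 libraries. Grik3 (r = -0.69, rho = -0.64) and Grm4 (r = -0.66, rho = -0.58) went the same way, with adjusted p of 0.000936 for both r. Grik4, a kainate subunit known from CA3 pyramidal cells, went the opposite way (r = 0.72, rho = 0.66, adjusted p = 0.00052 for r). Cnih2, Grm7 and Neto1 were also higher with these markers (r = 0.55, 0.55 and 0.53). In the same order, r was 0.74, 0.68 and 0.62 among Glu-CB1 libraries but 0.30, 0.32 and 0.34 among GABA-CB1 libraries. The smallest p that these permutations can give is 1e-05.

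Cnih3 had r = -0.40 with the CA3 and CA2 list (adjusted p = 0.0731), with -0.72 among Glu-CB1 and 0.12 among GABA-CB1 libraries. With the interneuron list it had r = 0.37 (adjusted p = 0.104). Grm2 followed the dentate markers (r = 0.70, rho = 0.64, adjusted p = 0.00052 for r), r = 0.59 without the 2 libraries farthest from the median. Gria4 and Grik1 followed the interneuron markers (r = 0.615 and 0.55, adjusted p = 0.00312 and 0.0177). Grm3 followed the astrocyte markers (r = 0.46, adjusted p = 0.0434). Grm4 was higher and Grik4 lower with the thalamic markers (r = 0.55 and -0.57). The libraries share dissection and depth. Within the 34 libraries the values of Grm8 (-0.84), Grik3 (-0.76) and Grik4 (0.81) with the CA3 and CA2 list were no smaller in size. Those of Grm4 (-0.60), Cnih2 (0.53), Neto1 (0.48) and Grm7 (0.43) were smaller. Of the other genes with an adjusted permutation p under 0.05 for this list, Neto2 went from 0.44 to 0.27, Grin2a from 0.41 to 0.19 and Grik2 from 0.44 to -0.02. Grin3a went from -0.51 to -0.54.

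**Figure D5:**
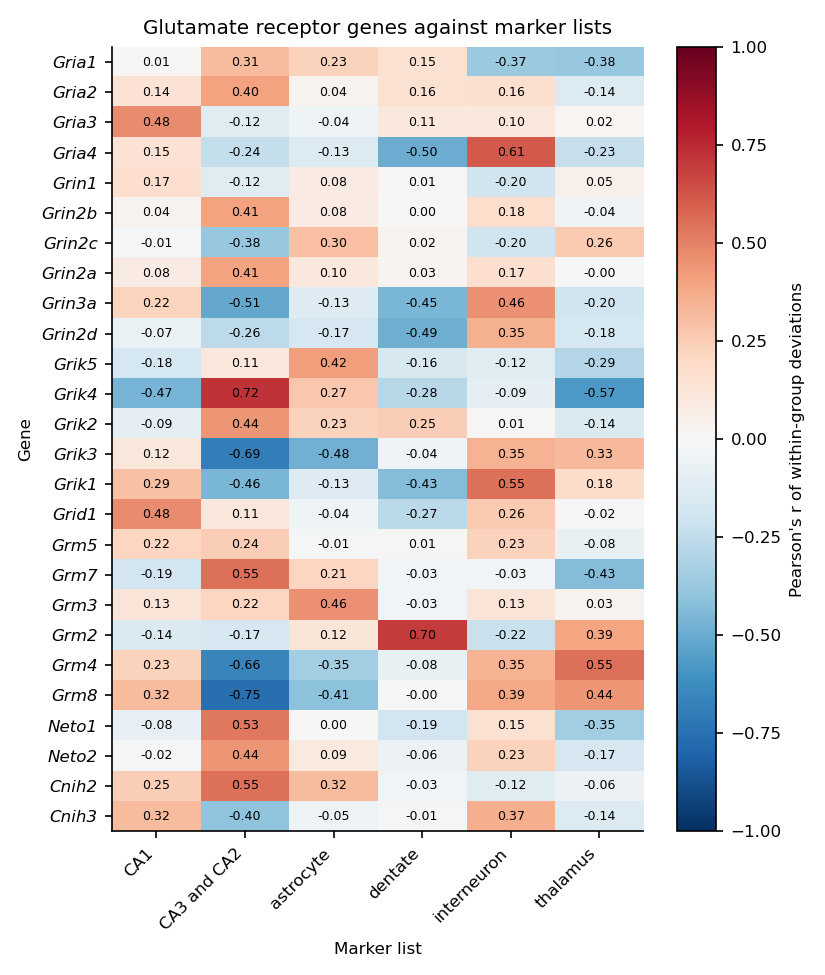
Pearson's r between each gene and the mean of each marker list, both as deviations from the group mean on the log2 CPM scale over 48 libraries (red positive, blue negative). The column of CA3 and CA2 markers holds the extremes, Grm8 at -0.75 and Grik4 at 0.72.

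Other genes of the glutamatergic synapse were examined in 5 lists, to see whether the partners of these receptors moved. Among 16 further auxiliary genes, 21 scaffold genes, 11 genes of glutamate supply and 13 detected genes of metabotropic signalling, none was called in any of the 15 comparisons. Among 14 synaptic organizers and ligands, Nrn1, a neuritin that acts at AMPA synapses, was lower in basal GABA-CB1-KO mice (log2 -0.20, SE 0.037, adjusted p = 0.0390). Lrrtm1, a leucine-rich adhesion protein that holds AMPA receptors, was higher in GABA-CB1-KO mice over both states (log2 0.11, SE 0.023, adjusted p = 0.0339). For its relative Lrrtm3 the KO effect after the open field was larger in the Glu-CB1 line (log2 difference 0.65, SE 0.14, adjusted p = 0.0343). Over the 15 comparisons the list medians ran from -0.11 to 0.15 on the log2 scale, both extremes in the organizers and ligands, at -0.11 in GABA-CB1-KO mice after the open field and 0.15 for the difference between the lines over both states.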

How the data were processed

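RNA of 48 CA samples was amplified with the NuGEN Ovation RNA-seq kit and sequenced on a HiSeq 2500. Reads were trimmed with bbduk, aligned to mm10 with STAR 2.6.0a and assigned to genes with featureCounts 1.6.2, and the authors deposited the raw count of each gene in each sample. Amplification of total RNA can change the coverage of long transcripts. Groups came from the sample labels. In the GABA-CB1 open field groups the study's text gives the sizes of WT and KO in the reverse order, and the labels were used. Counts were tested with edgeR 4.0.16 (R 4.3.3, limma 3.58.1; TMM, filterByExpr, quasi-likelihood test, Benjamini-Hochberg adjustment over all genes tested), with a gene called at an adjusted p under 0.05. DESeq2 1.42.0 was an alternative. Fold changes over both states came from 1 model with state and genotype as terms. Log2 CPM used a prior count of 2. TPM used the gene lengths in the count file. The test was checked on simulated data. Values were given for genes called in any comparison, the 3 of lowest p in each KO comparison and each comparison of states, Grin2b, and the gene of highest TPM in each family. The members, marker lists and pathway lists were chosen with earlier results of these data known. No 2 libraries of a group agreed within sampling noise. Counting error is small at these depths except for Grm8, Grm4 and Grin2d.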

Additional observations from a re-analysis of the deposited data

Results flagged for a closer look

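The KO effect differed between the lines for Grm8 after the open field, by 1.19 on the log2 scale, and for Cnih3 over both states, by 0.33. Both differences were tested directly, and the library and marker values that moved with them are given with the results.

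In 20 of 208 sets of values (9.615%), 1 library stood apart from the rest of its group by Dixon's ratio of the gap to the range, where chance marks about 1 in 20. Several were libraries of the group of 14. In GABA-CB1-KO basal replicate 2 the ratio was 0.749 for Grin2a (10.7 CPM against 43.8 to 54.9 in the others), 0.694 for Grin2b (30.9 against 111 to 146), 0.774 for Neto1 and 0.678 for Grm5, all low. In GABA-CB1-WT open field replicate 1 it was 0.601 for Grin2a, 0.724 for Gria2, 0.679 for Gria3 and 0.757 for Grm5, also low. Grin2a was low in GABA-CB1-KO open field replicate 3 (0.712). In the Glu-CB1-KO basal group, Grin2d was high in replicate 1 (0.620), Grm2 high in replicate 2 (0.639) and Grm3 low in replicate 3 (0.732), and Grm4 was high in Glu-CB1-WT basal replicate 3 (0.731).

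Of the others, Cnih2 was high in Glu-CB1-KO open field replicate 5 (0.738, 347 CPM against 309 to 319) and in GABA-CB1-WT open field replicate 3 (0.591), and Grid1 was high in the first of these (0.627). Grin1 was low in Glu-CB1-WT open field replicate 2 (0.862, 506 CPM against 576 to 587). Grik5 was high in GABA-CB1-KO open field replicate 1 (0.715, 303 CPM against 212 to 238) and Neto1 in replicate 5 of that group (0.790). Grm4 was high in GABA-CB1-KO basal replicate 6 (0.702).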

How the results depend on the processing

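Counts of called genes among the 26 changed with the settings as follows. In Glu-CB1-KO against WT mice after the open field the count of 0 became 3 with DESeq2 and 1 with all 48 libraries in one fit, with the animal-number range as a covariate or with the first principal component as a covariate. In that order, these settings called 0.792%, 0.18%, 0.318% and 0.577% of the genes each tested. Over both states the count of 1 became 0 with the animal-number range as a covariate, without the 14 libraries, and with the CA3 and CA2 or the interneuron markers as a covariate. In that order, these settings called 0.257%, 0.0923%, 0.198% and 0.0461% of all genes, against 0.257% in the main fit. The interaction in the GABA-CB1 line went from 0 to 1 with DESeq2, which called 0.728% of the genes it tested. The difference between the lines after the open field went from 1 to 3 with DESeq2 or the first principal component, to 2 with RLE size factors or at least 10 counts in every library, and to 0 with all 48 libraries, the animal-number range, the replicate block, without the 14 libraries, and with either marker list. The settings with 3 or 2 called 1.28%, 0.953%, 0.581% and 0.668% of the genes each tested, in that order. Those with 0 called 0.34%, 0.555%, 0.352% and 0.286% in the order given, 0.489% with the CA3 and CA2 list and 0% with the interneuron list. The main fit called 0.568%. Over both states that difference went from 1 to 0 without a filter beyond a total of 1, with the animal-number range, without the 14 libraries and with either marker list. These settings called 0.427%, 0.551% and 0.349% of all genes in that order, 0.693% with the CA3 and CA2 list and 0.292% with the interneuron list. The main fit called 0.739%. The comparison of states over all libraries went from 0 to 1 with the first principal component. That fit called 11.9% of all genes, against 9.25% without the component. Leaving out 1 library at a time gave 0 to 2 called genes in the Glu-CB1 line after the open field, 0 to 1 over both states, and 0 to 3 and 0 to 2 for the difference between the lines after the open field and over both states. Over all genes these fits called 14 to 48, 25 to 100, 50 to 112 and 82 to 176 genes, in the same order. Each count gained in the Glu-CB1 line after the open field came from leaving out Glu-CB1-WT replicate 1 (Cnih3, Grik3), Glu-CB1-WT replicate 3 (Grm4) or Glu-CB1-KO replicate 6 (Cnih3). The cause was not tested.

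Of 390 fold changes (26 genes in 15 comparisons), 175 turned sign in at least 1 setting other than leaving out a library, and 0 of these had been called. Among the genes followed singly, Grin2b, never called, turned sign. In basal Glu-CB1 mice it was -0.18 with the replicate block, -0.048 with the first principal component and -0.037 without the 14 libraries, and it ran from -0.21 to 0.23 with 1 library left out. After the open field it was 0.10 with the animal-number range and 0.92 with the CA3 and CA2 markers. In the GABA-CB1 line it was -0.044 at baseline and 0.040 after exploration with the first principal component, and ran from -0.25 to 0.081 after the open field with 1 library left out. Between states in that line it was -0.063 without the 14 libraries and ran from -0.015 to 0.19 with 1 library left out. In 21 pairs of a KO and a WT library of the same line, state and replicate number, deviations correlated between -0.59 and 0.52. The correlation was over 0.1 in 5 pairs, so the numbers did not pair the samples. The replicate block was therefore used as an alternative only. The settings with the principal component, without the 14 libraries and with marker lists, and the fits of the differences between lines with 1 library left out, were chosen after seeing the data. The animal-number range could not be fitted for WT mice of both lines, since the ranges lie within lines. Over all genes, DESeq2 called 141 genes against 3 by edgeR in GABA-CB1-KO mice after the open field and 124 against 41 in Glu-CB1-KO mice. Grm8, with the lowest level of the genes tested, has the least counting precision.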
